A study of Mus musculus with 6 samples.

Results

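The mitochondrial carriers of the Slc25 family were examined in liver RNA of mice whose hepatocytes lack the splicing factor SRSF3. Members were the genes whose single annotated symbol starts with Slc25a followed by a digit, together with all their probe sets, a rule on symbols that uses no intensity. They came to 38 of 16277 genes and to 476 of 229581 probe sets, with 3 to 27 probe sets per gene. Whole liver of untreated, 1-month-old mice was hybridised to Affymetrix mouse exon arrays, which read several parts of each transcript. The SRSF3HKO group held 3 arrays of hepatocyte Srsf3 knockout mice, and the WT group held 3 arrays of mice that the labels describe as littermates and as age-matched controls. The labels name 3 SRSF3HKO mice and leave unsaid whether the WT arrays stand for 3 mice. A p-value here therefore covers the spread between arrays, which may be technical. The strain, the sex, the driver of the hepatocyte deletion and the deleted part of Srsf3 are not given in the sources used here.

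Slc25 proteins sit in the inner mitochondrial membrane, which most metabolites cannot cross unaided. Each carrier binds a substrate on one face, changes shape and releases it on the other, often in exchange for a second substrate. In liver the family passes ADP and ATP, phosphate, citrate for lipid synthesis, ornithine for the urea cycle, the malate-aspartate shuttle metabolites, acylcarnitines, iron and cofactors between cytosol and matrix. A few members work elsewhere, such as Slc25a17 in peroxisomes and Slc25a46 in the outer mitochondrial membrane.

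The deposited values are PLIER intensities, a linear measure of probe brightness. They were analysed as log2(intensity + 16), a scale that understates the changes of dim genes, with the median over the probe sets taken as the level of each gene. A gene was tested where its mean lay above a detection floor of 5.35 on this scale (an intensity of 24.7), the 90th percentile of 1044 receptor genes of smell and taste. Brightness also depends on the probes, so levels of different genes are not compared. Log2 changes are SRSF3HKO minus WT throughout, with the SE from limma (n = 3 arrays each), every adjusted p of a gene or probe set is limma's with Benjamini-Hochberg adjustment over all genes or probe sets tested, and a gene that passed the test, or was called, had an adjusted p under 0.05. In bulk tissue, fewer cells of a type and less RNA per cell cannot be told apart.

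Srsf3 itself had gene levels of 10.30, 9.10 and 9.78 in the SRSF3HKO arrays, against 9.79, 9.24 and 9.35 in the WT arrays (log2 change 0.26 ± 0.31, limma adjusted p = 0.625). Median polish over probe sets gave 0.81 (limma adjusted p = 0.0780). Of its 13 tested probe sets 6 were called higher and 0 lower, and those outside the deleted part check nothing about the labels. Hepatocyte markers, 9 of 9 above the floor, had summed intensities of 68402 to 81480 in SRSF3HKO and 85969 to 89637 in WT. The 8 macrophage markers, all above the floor, summed to 19130 in SRSF3HKO replicate 1, to 3079 and 3508 in SRSF3HKO replicates 2 and 3, and to between 2724 and 3144 in WT. Y-linked genes were bright in SRSF3HKO replicate 3 and WT replicates 1 and 2 and near background in the other arrays, so each group held both kinds. Across genes, arrays correlated at Pearson's r of 0.904 to 0.948 within SRSF3HKO and 0.973 to 0.981 within WT.

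Of the 38 Slc25a genes, 36 lay above the floor and 6 passed the test. Slc25a4 and Slc25a28 rose in SRSF3HKO liver, and Slc25a23, Slc25a42, Slc25a21 and Slc25a1 fell. The share called was 16.7% of members, against 11.9% of the 11707 genes tested. By direction, 5.56% of members were higher and 11.1% lower, against 6.85% and 5.03% of all genes. Median log2 change was 0.14 over the members, with 22 above 0 and 14 below it, against 0.08 over all genes. The middle 50% of members, by quartiles, lay between -0.22 and 0.35. In 11 members (30.6%) the arrays of the groups did not overlap, which was so for 35.6% of all genes tested. The shares of all calls and of higher calls lay near the background of the series, and the share of lower calls, resting on 4 genes, above it. The difference between these shares was not tested. SRSF3HKO replicate 2 gave the highest value in 15 of the 36 members and WT replicate 2 the lowest in 13. WT replicate 2 was also the dimmest array over all genes tested, with a median level of 7.07. That median was 7.26 in SRSF3HKO replicate 2 and 7.26 to 7.40 over all arrays but WT replicate 2. The median SD of a member was 0.40 in SRSF3HKO and 0.28 in WT, against 0.29 and 0.19 over all genes.

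**Figure D1:**
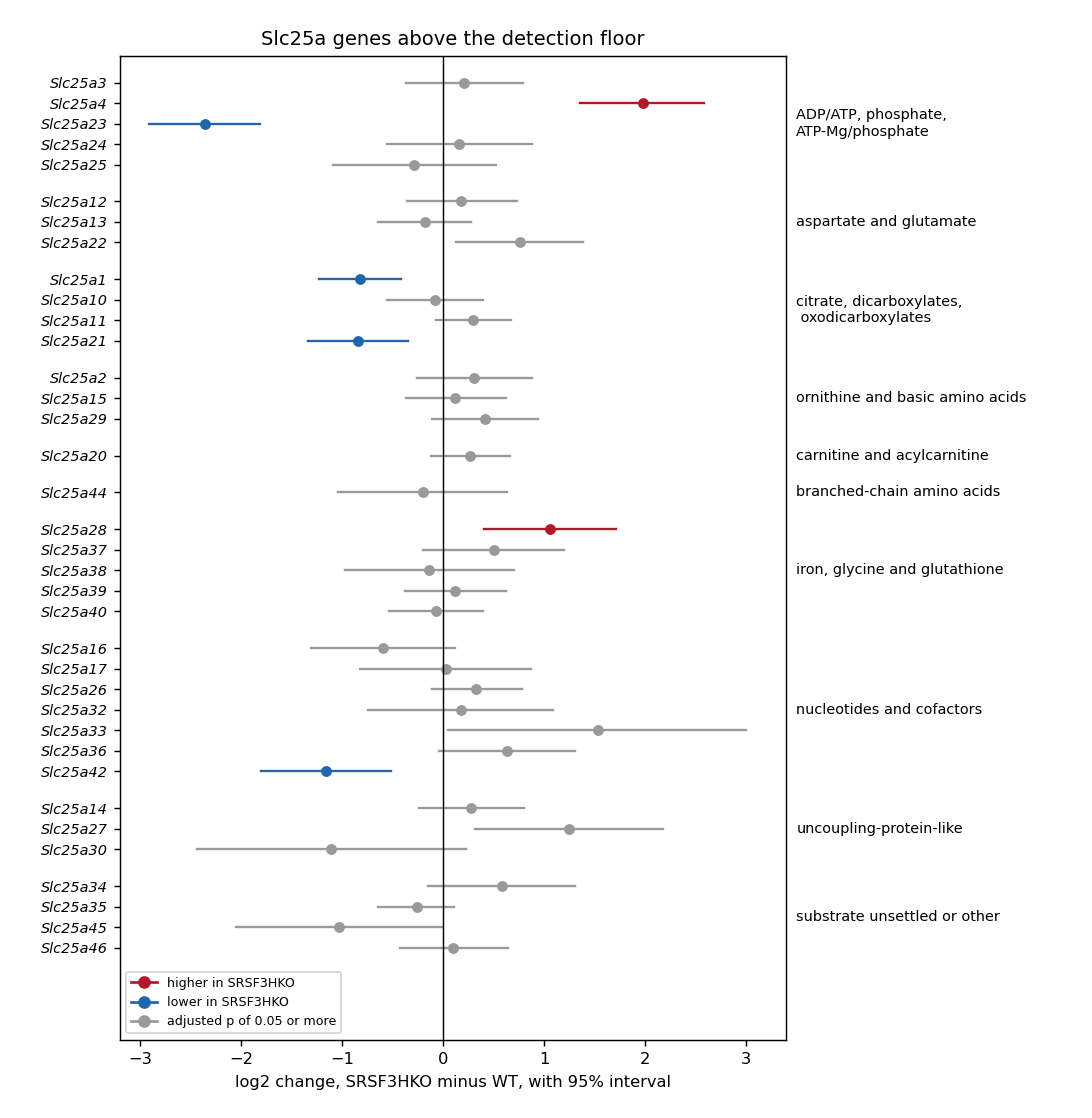
Log2 change, SRSF3HKO minus WT, of the 36 Slc25a genes above the detection floor, grouped by substrate, as points with 95% intervals from limma (n = 3 arrays each). Red marks the 2 genes called higher in SRSF3HKO, blue the 4 called lower and grey the 30 with an adjusted p of 0.05 or more, 23 of which lay within 1.5-fold of WT.

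Slc25a4 encodes adenine nucleotide translocator 1, the exchanger of matrix ATP for cytosolic ADP that predominates in heart and skeletal muscle. Its gene level was 9.71, 8.80 and 8.83 in the SRSF3HKO arrays, against 7.18, 7.05 and 7.18 in the WT arrays. As intensity this was 566 ± 220 in SRSF3HKO and 129 ± 5.68 in WT (SD, n = 3 each), and all SRSF3HKO arrays stood above all WT arrays, replicate 1 highest. The log2 change was 1.98 ± 0.27, a 3.93-fold rise (limma adjusted p = 0.00514). Of its 9 tested probe sets 8 were called higher and 0 lower, and all 9 had groups that did not overlap, with changes between 0.78 and 2.21. Leaving out SRSF3HKO replicate 1, the array with the highest sum of macrophage markers, gave a log2 change of 1.68 (limma adjusted p = 0.00389). That omission does not remove every macrophage difference. Marco was at 8.43 and 7.81 in SRSF3HKO replicates 2 and 3, against 6.26 to 6.40 in WT. Cd68 and Vsig4 also stood above all WT arrays there, while Cd5l, Csf1r, Adgre1, Timd4 and Clec4f had overlapping groups. The part of macrophages in the Slc25a4 values was not tested. Of 6 markers of fat and of skeletal muscle, where Slc25a4 is abundant, 2 were above the floor. These were the muscle genes Acta1 and Ckm, with log2 changes of -0.27 and 0.15, neither called. Myh4, a muscle myosin, and the fat genes Adipoq, Ucp1 and Lep were below the floor. In Adipoq the SRSF3HKO arrays, at 5.03 to 5.56, stood above the WT arrays, at 4.51 to 5.02. The 6 markers summed to 146 to 177 in SRSF3HKO and 129 to 173 in WT. Their part in the Slc25a4 values was not tested.

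Slc25a23 encodes a calcium-regulated carrier that exchanges ATP-Mg for phosphate and so adjusts the adenine nucleotide content of the matrix. Its gene level was 7.80, 7.18 and 7.87 in the SRSF3HKO arrays, against 10.12, 10.06 and 9.75 in the WT arrays. The intensity was 185 ± 48.6 in SRSF3HKO and 999 ± 133 in WT (SD, n = 3 each), with no overlap. The log2 change of -2.36 ± 0.24, with WT 5.12-fold higher, had the lowest adjusted p of the family (limma adjusted p = 0.00167). Of its 18 tested probe sets 17 were called lower and 0 higher. Slc25a4 and Slc25a23 kept their calls under each of the 20 alternative settings tried at gene level, with log2 changes of 1.67 to 2.13 and -2.48 to -2.10.

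**Figure D2:**
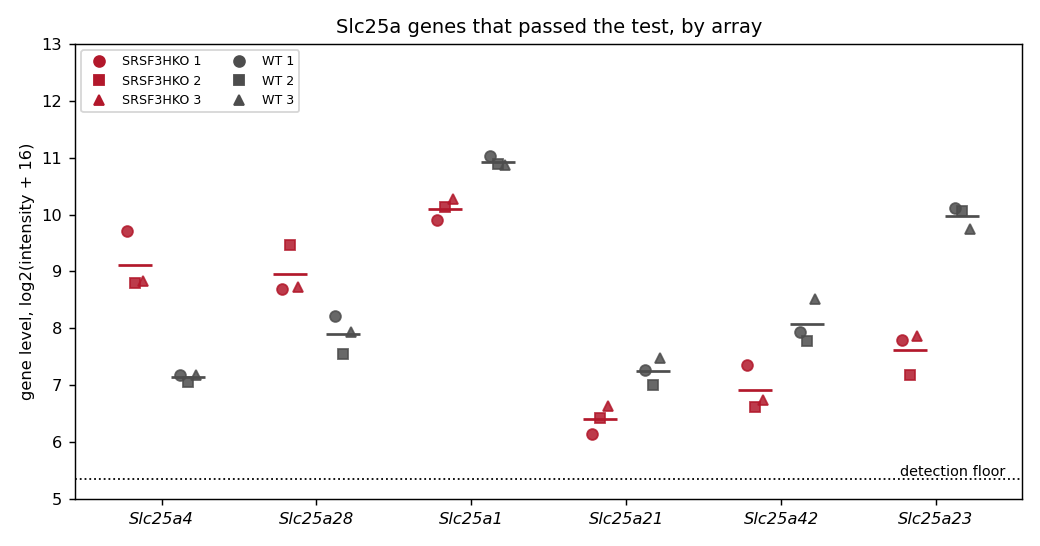
Gene levels on the log2(intensity + 16) scale of the 6 Slc25a genes that passed the test, with SRSF3HKO arrays in red at the left of each pair, WT arrays in grey at the right, a symbol per replicate and a bar at each mean. In each gene the groups do not overlap, and Slc25a4 and Slc25a23 stand furthest apart, at mean levels of 9.11 against 7.14 and 7.62 against 9.98.

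Slc25a4 and Slc25a23 moved in opposite directions. The promoters of the called members Slc25a21, Slc25a28 and Slc25a42 are not printed. The stretches just upstream of the starts of Slc25a4 and Slc25a23 are set beside that of the citrate carrier gene Slc25a1, described below, to show how they differ in letters. Each is the 250 bases before the transcription start in RefSeq (GRCm38.p6), read 5' to 3' on the strand of the gene, at chr8:46211063-46211312 (minus strand) for Slc25a4, chr17:57059864-57060113 (minus strand) for the first of the 2 listed starts of Slc25a23, and chr16:17928220-17928469 (minus strand) for Slc25a1. Capitals mark matches on either strand to the NF-Y box CCAAT, the GC box GGGCGG or the E-box CACGTG.
Slc25a4: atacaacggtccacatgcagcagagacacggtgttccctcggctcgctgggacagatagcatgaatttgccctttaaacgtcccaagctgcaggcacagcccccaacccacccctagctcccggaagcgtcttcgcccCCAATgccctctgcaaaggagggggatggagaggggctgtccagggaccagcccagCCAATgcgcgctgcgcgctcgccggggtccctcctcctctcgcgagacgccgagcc
Slc25a23: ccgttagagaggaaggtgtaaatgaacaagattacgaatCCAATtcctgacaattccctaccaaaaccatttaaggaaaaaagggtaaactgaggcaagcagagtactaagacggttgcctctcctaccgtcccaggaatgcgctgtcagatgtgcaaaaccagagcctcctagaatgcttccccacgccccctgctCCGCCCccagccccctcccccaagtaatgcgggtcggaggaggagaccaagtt
Slc25a1: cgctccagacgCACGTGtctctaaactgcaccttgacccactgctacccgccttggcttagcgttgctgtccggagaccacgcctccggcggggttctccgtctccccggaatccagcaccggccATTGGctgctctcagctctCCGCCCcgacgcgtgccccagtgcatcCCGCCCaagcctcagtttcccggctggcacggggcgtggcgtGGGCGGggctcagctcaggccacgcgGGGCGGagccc
RefSeq promoters were found for 29 members, including all 6 that passed the test. The NF-Y box was present upstream of 15 of the 29 members and of each of the 6 called ones, against 34.5% of all 27025 promoters. The GC box stood in 21 of the 29 members and in 4 of the 6, but not in Slc25a4 or Slc25a21, against 32.9% of all promoters. The E-box stood in 6 of the 29 and, among the 6, in Slc25a1, against 6.05% of all. The cAMP response element TGACGTCA was found in 1 of the 29 and in 0 of the 6 (1.62% of all), and TATAAA in 0 of the 29 (13% of all). None of these motifs contains another, both strands were searched, and a match of letters is not a binding site.

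The other carriers of adenine nucleotides and phosphate did not pass the test. Slc25a3, the phosphate carrier that supplies ATP synthase, had 11.69, 10.95 and 11.78 in the SRSF3HKO arrays, against 11.02, 11.43 and 11.34 in the WT arrays (log2 change 0.21 ± 0.25, limma adjusted p = 0.625). The groups overlapped, with SRSF3HKO replicate 2 the lowest array. The change was 0.47 without that array (limma adjusted p = 0.0967), and 0.10, 0.06 and 0.09 without SRSF3HKO replicate 1, SRSF3HKO replicate 3 and WT replicate 1. The remaining ATP-Mg carriers Slc25a24 and Slc25a25 had log2 changes of 0.16 ± 0.31 and -0.29 ± 0.35. Slc25a31, the testis form of the adenine nucleotide translocator, and the ATP-Mg carrier Slc25a41 were below the floor, with mean levels over all arrays of 4.74 and 5.33. The tested members nearest above the floor were Slc25a35 at 5.38 and Slc25a2 at 5.40. Slc25a5, the translocator form of most tissues, was not measured as a member because its 6 probe sets are shared with another gene in the annotation.

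Among carriers of citrate and dicarboxylates, 2 of 4 fell and 0 rose. Slc25a1, the citrate carrier that exports citrate as the source of cytosolic acetyl-CoA, had 9.91, 10.14 and 10.27 in the SRSF3HKO arrays, against 11.03, 10.89 and 10.87 in the WT arrays. All SRSF3HKO arrays lay below all WT arrays, at intensities of 1094 ± 138 in SRSF3HKO and 1945 ± 125 in WT (SD, n = 3 each). The log2 change was -0.82 ± 0.18, with WT 1.77-fold higher (limma adjusted p = 0.0250). All 12 of its probe sets were lower without overlap, and 9 of them were called. The call was lost without SRSF3HKO replicate 1 (limma adjusted p = 0.0556), with WT replicate 1, 2 or 3 left out (limma adjusted p = 0.121, 0.0938 and 0.0865) and with Y-linked signal as covariate (limma adjusted p = 0.0626), at log2 changes of -0.86 to -0.73.

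Slc25a21 transports oxodicarboxylates such as 2-oxoadipate, an intermediate of lysine and tryptophan breakdown. Its levels were 6.14, 6.43 and 6.64 in the SRSF3HKO arrays, against 7.27, 7.00 and 7.47 in the WT arrays, with no overlap. The log2 change was -0.84 ± 0.22, with WT 1.79-fold higher (limma adjusted p = 0.0419). Of its 12 tested probe sets 7 were called lower and 0 higher. The call was lost without SRSF3HKO replicate 1 (limma adjusted p = 0.0859), with WT replicate 1, 2 or 3 left out (limma adjusted p = 0.143, 0.0842 and 0.150), with that covariate (limma adjusted p = 0.0879) and with no filter on dim genes (limma adjusted p = 0.0535). With median polish over probe sets the change was -1.37 (limma adjusted p = 0.0128). Slc25a10, the dicarboxylate carrier, differed by -0.08 ± 0.21, and its groups overlapped. The oxoglutarate-malate carrier Slc25a11, a limb of the malate-aspartate shuttle, differed by 0.30 ± 0.16 (limma adjusted p = 0.266). In Slc25a11 all SRSF3HKO arrays, at 10.26 to 10.34, stood above all WT arrays, at 9.96 to 10.04.

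None of the 3 carriers of aspartate and glutamate passed at gene level. Slc25a13, known as citrin, is the liver aspartate-glutamate carrier of the malate-aspartate shuttle and the urea cycle. It had 10.68, 11.17 and 10.99 in the SRSF3HKO arrays, against 11.15, 10.90 and 11.33 in the WT arrays (log2 change -0.18 ± 0.20, limma adjusted p = 0.602). Its groups overlapped, and the 95% interval of the change ran from -0.64 to 0.28. With single arrays left out the change ran from -0.29 (without SRSF3HKO replicate 2 or WT replicate 2) to -0.05 (without SRSF3HKO replicate 1). Slc25a12, the aspartate-glutamate carrier of muscle and brain, differed by 0.18 ± 0.24. Slc25a22, a glutamate-proton carrier, had 10.02, 10.56 and 10.20 in the SRSF3HKO arrays, against 9.46, 9.04 and 9.99 in the WT arrays. Its groups did not overlap, although SRSF3HKO replicate 1 and WT replicate 3 nearly met, and the log2 change was 0.76 ± 0.27 (limma adjusted p = 0.109). At the level of single probe sets, 4 of its 16 were called higher, at 1.33 to 2.16.

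The ornithine carriers, which link the cytosolic and the matrix steps of the urea cycle, did not pass the test. Slc25a15, the main liver form, had 11.01, 11.39 and 11.18 in the SRSF3HKO arrays, against 11.29, 10.70 and 11.22 in the WT arrays. With overlapping groups, its log2 change was 0.12 ± 0.21 (limma adjusted p = 0.748), and its sign turned to -0.06 without WT replicate 2, the lowest array. Slc25a2, another ornithine carrier with a WT mean under the floor, differed by 0.31 ± 0.25, and Slc25a29, a carrier of basic amino acids, by 0.42 ± 0.23. The carnitine-acylcarnitine carrier Slc25a20, which brings fatty acids into the matrix, differed by 0.27 ± 0.17, with SRSF3HKO arrays at 10.55 to 10.85 and WT arrays at 10.42 to 10.50. Slc25a44, a carrier of branched-chain amino acids, differed by -0.20 ± 0.36.

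Among the carriers of iron, glycine and glutathione, Slc25a28 rose and the other 4 did not pass the test. Slc25a28, or mitoferrin 2, brings iron into mitochondria in non-erythroid cells. It had 8.69, 9.47 and 8.72 in the SRSF3HKO arrays, against 8.22, 7.54 and 7.94 in the WT arrays. Every SRSF3HKO array was above every WT array, replicate 2 the highest, and the log2 change of 1.06 ± 0.28 was a 2.09-fold rise (limma adjusted p = 0.0463). At probe set level 3 of 10 were called higher and 0 lower. The call was lost without SRSF3HKO replicate 3 (limma adjusted p = 0.0635), with WT replicate 1, 2 or 3 left out (limma adjusted p = 0.0996, 0.166 and 0.132), with the covariate of Y-linked signal (limma adjusted p = 0.0958), with the mean over probe sets or a median polish in place of the median (limma adjusted p = 0.0592 and 0.0596) and with no filter on dim genes (limma adjusted p = 0.0585).

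Slc25a37, mitoferrin 1, serves iron uptake in developing red cells and differed by 0.50 ± 0.30 (limma adjusted p = 0.313), with 1 of 10 probe sets called higher. Of 8 erythroid markers 5 were above the floor. The summed intensity of the 8 was 9962, 1423 and 818 in the SRSF3HKO arrays and 10832, 9731 and 3149 in the WT arrays. The globin gene Hbb-b1, whose groups overlapped, made up most of each sum. Alas2 was called lower without overlap (log2 change -2.35, limma adjusted p = 0.0228). Slc4a1 was lower and Ermap higher, both without overlap and without a call, and Klf1 overlapped. The part of these markers in the mitoferrin values was not tested. Slc25a38, a glycine carrier for heme synthesis, differed by -0.14 ± 0.36. Slc25a39 is required for mitochondrial glutathione import. Its levels were 11.96, 12.70 and 12.09 in the SRSF3HKO arrays, against 12.16, 12.01 and 12.22 in the WT arrays (log2 change 0.12 ± 0.22, limma adjusted p = 0.766). The groups overlapped, and without SRSF3HKO replicate 2, the highest array, the change turned to -0.11. Its close relative Slc25a40 differed by -0.07 ± 0.20.

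Of 7 carriers grouped under nucleotides and cofactors, Slc25a42 fell and 0 rose. Slc25a42 exchanges coenzyme A for adenine nucleotides and so supplies the matrix with the cofactor of fatty acid oxidation. It had 7.36, 6.62 and 6.74 in the SRSF3HKO arrays, against 7.93, 7.77 and 8.51 in the WT arrays. The groups did not overlap, and the log2 change was -1.16 ± 0.28, with WT 2.23-fold higher (limma adjusted p = 0.0356). Of its 9 tested probe sets 4 were called lower and 0 higher. The call was lost without SRSF3HKO replicate 3 (limma adjusted p = 0.0844) and with WT replicate 1, 2 or 3 left out (limma adjusted p = 0.107, 0.0844 and 0.124), at log2 changes of -1.31 to -0.94.

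Slc25a16, long linked to coenzyme A uptake, had 8.12, 9.24 and 9.07 in the SRSF3HKO arrays, against 9.52, 9.11 and 9.59 in the WT arrays. Its groups overlapped, and the change of -0.60 ± 0.31 (limma adjusted p = 0.247) shrank to -0.25 without SRSF3HKO replicate 1, the lowest array. Slc25a33, a pyrimidine nucleotide carrier, had 7.86, 10.42 and 8.18 in the SRSF3HKO arrays, against 7.97, 7.28 and 6.62 in the WT arrays. SRSF3HKO replicate 2 alone stood far above the rest, and the change of 1.53 ± 0.64 (limma adjusted p = 0.160) was 0.73 without it. The related carrier Slc25a36 had 6.00, 6.32 and 5.43 in the SRSF3HKO arrays, against 5.25, 4.84 and 5.77 in the WT arrays, with overlap. Its WT mean of 5.29 lay below the floor, so the ratio of the group means is given as at least 1.49-fold. The log2 change was 0.63 ± 0.30 (limma adjusted p = 0.198), with a 95% interval from -0.04 to 1.31. That change was 0.41 without WT replicate 2, 0.43 without SRSF3HKO replicate 2 and 0.32 with a pseudocount of 64. The S-adenosylmethionine carrier Slc25a26 differed by 0.33 ± 0.20, without overlap. Changes of 0.18 ± 0.40 and 0.03 ± 0.37 were found in Slc25a32, which serves folate and FAD transport, and in the peroxisomal Slc25a17.

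Carriers resembling uncoupling proteins and those of unsettled substrate held no called gene. Slc25a27, an uncoupling-like carrier known from brain, had 6.04, 7.50 and 6.09 in the SRSF3HKO arrays, against 5.05, 5.02 and 5.81 in the WT arrays. The WT mean of 5.30 lay below the floor, so the ratio of the group means is given as at least 2.29-fold. That bound does not cover the spread between arrays, and the 95% interval of the log2 change ran from 0.32 to 2.18. The groups did not overlap, and the gene was not called (log2 change 1.25 ± 0.41, limma adjusted p = 0.0831). SRSF3HKO replicate 2 stood apart, and without it the change was 0.77, as it was 0.72 with a pseudocount of 64. Slc25a30 had 10.12 in WT replicate 2 and between 7.12 and 8.37 in the other arrays (log2 change -1.11 ± 0.58, limma adjusted p = 0.250). Its relative Slc25a14 differed by 0.28 ± 0.23.

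Slc25a45, whose substrate was long unassigned, had 7.87, 6.43 and 8.32 in the SRSF3HKO arrays, against 8.77, 8.26 and 8.68 in the WT arrays. The groups met at SRSF3HKO replicate 3, and the change of -1.03 ± 0.44 (limma adjusted p = 0.167) was -0.48 without SRSF3HKO replicate 2, the lowest array. Slc25a34, Slc25a35 and Slc25a46 differed by 0.58 ± 0.32, -0.26 ± 0.16 and 0.10 ± 0.23, the SRSF3HKO mean of Slc25a35 being under the floor. Across the 30 tested members that were not called, log2 changes ran from -1.11 to 1.53 and limma adjusted p-values from 0.0831 to 0.971. In 5 of them the groups did not overlap, all with SRSF3HKO higher, namely Slc25a11, Slc25a20, Slc25a22, Slc25a26 and Slc25a27. Called members included, 7 of 36 members were higher without overlap and 4 lower, against 2533 and 1639 of the 11707 genes tested. The difference in direction was not tested.

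Among arrays with Y-linked signal (SRSF3HKO replicate 3 against WT replicates 1 and 2) and among those without it (SRSF3HKO replicates 1 and 2 against WT replicate 3), the differences in the 6 called members kept their sign. With and without the signal, SRSF3HKO minus WT was 1.71 and 2.08 for Slc25a4, -2.21 and -2.26 for Slc25a23 and -0.70 and -0.84 for Slc25a1. It was -0.50 and -1.18 for Slc25a21, 0.85 and 1.14 for Slc25a28 and -1.10 and -1.52 for Slc25a42. Each such comparison holds 1 array in a group, so no test was made. As a covariate across all arrays, the Y-linked signal left 3 of the 6 calls, those of Slc25a4, Slc25a23 and Slc25a42.

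Single probe sets were also tested, at a floor of 5.62 for probe sets. Of the 476 probe sets of the family 403 lay above it and 57 were called, 19 higher and 38 lower in SRSF3HKO. That was 14.1% of the family's tested probe sets, against 9.05% of all 157833 tested. By direction the shares were 4.71% higher and 9.43% lower, against 4.73% and 4.32%. Most of the called probe sets, 48, belonged to the 6 called genes, and probe sets of 1 gene are readings of the same transcripts and not replicates. The other 9 lay in Slc25a22, Slc25a12, Slc25a27, Slc25a3, Slc25a36 and Slc25a37.

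**Figure D3:**
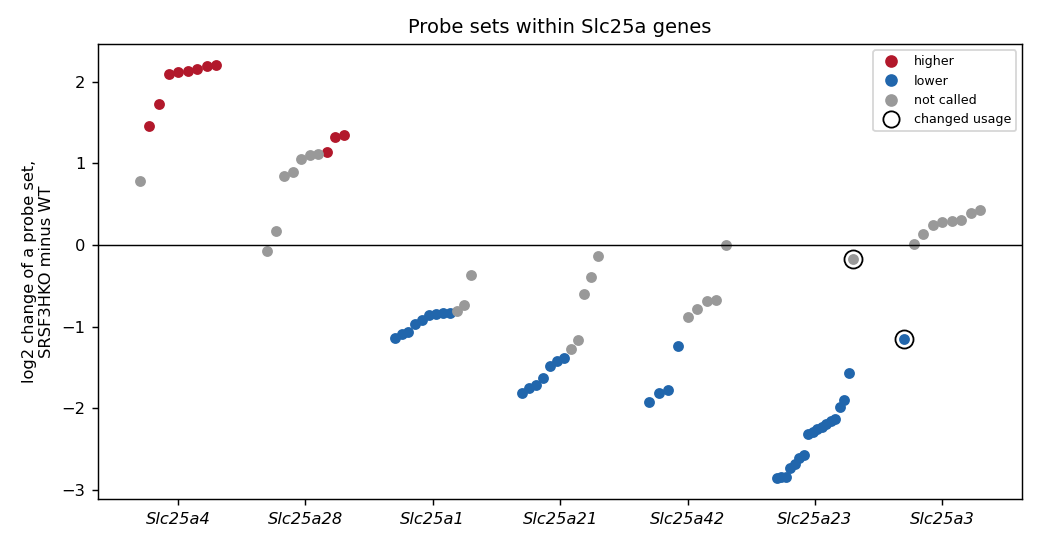
Log2 change, SRSF3HKO minus WT, of each tested probe set in the 6 called genes and in Slc25a3, with called probe sets in red (higher) or blue (lower), the others in grey, and black rings around the 2 with changed usage. In Slc25a4 the 9 probe sets run from 0.78 to 2.21, and in Slc25a23 a ringed probe set at -0.17 stands apart from 17 others between -2.86 and -1.57.

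SRSF3 takes part in exon choice, so diffSplice of limma was used to ask whether a probe set changed otherwise than its gene (its usage). Of 398 Slc25a probe sets in genes with at least 3 tested probe sets, 2 were called (0.503%, 1 used more and 1 used less), against 0.659% of 135700 probe sets in all. Probe set 5412962 of Slc25a23 had log2 values of 6.32, 6.55 and 6.43 in the SRSF3HKO arrays, against 6.74, 7.00 and 6.06 in the WT arrays, with overlapping groups. It differed by -0.17 ± 0.29, while the other 17 probe sets of the gene differed by -2.86 to -1.57. Its usage therefore read 2.20 higher on the log2 scale in SRSF3HKO (diffSplice adjusted p = 4.99e-06). Relative to the others it stood at -1.50, -0.67 and -1.50 in the SRSF3HKO arrays, against -3.46, -3.10 and -3.74 in the WT arrays. It was dim for its gene in every WT array. Another dim probe set of Slc25a23, 5458725, was called lower (limma adjusted p = 0.00849), with intensities of 1.24, 8.02 and 23.4 in the SRSF3HKO arrays, against 126, 81.4 and 95.7 in the WT arrays. Its SRSF3HKO mean lay below the probe set floor, so the WT mean is given as at least 2.34-fold higher. Whether dimness bears on the usage of probe set 5412962 was not tested.

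Slc25a3 is known to have a pair of mutually exclusive exons, one used in heart and skeletal muscle and the other in most tissues. Its probe set 4925803 had intensities of 270, 139 and 321 in the SRSF3HKO arrays, against 523, 529 and 548 in the WT arrays. All SRSF3HKO arrays lay below all WT arrays, and the log2 change was -1.15 ± 0.30 (limma adjusted p = 0.0457). The other 8 tested probe sets of the gene differed by 0.01 to 0.43, and usage of this one was lower by 1.41 on the log2 scale (log2 usage change -1.41, diffSplice adjusted p = 0.00515). Relative to the others it stood at -3.74, -3.88 and -3.56 in the SRSF3HKO arrays, against -2.08, -2.36 and -2.24 in the WT arrays. Positions of probe sets were not analysed here, so the exon it reads is not named. The call was lost with WT replicate 1, 2 or 3 left out (diffSplice adjusted p = 0.0856, 0.0671 and 0.0869). A splicing index per array, tested with limma, called 0 of the 398 probe sets and 41 of the 135700 in all. At an unadjusted limma p under 0.05 it gave 63 of the 398 and 16316 of the 135700. For these 2 probe sets it gave 2.19 and -1.37, with limma adjusted p = 0.0891 and 0.0726.

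**Figure D4:**
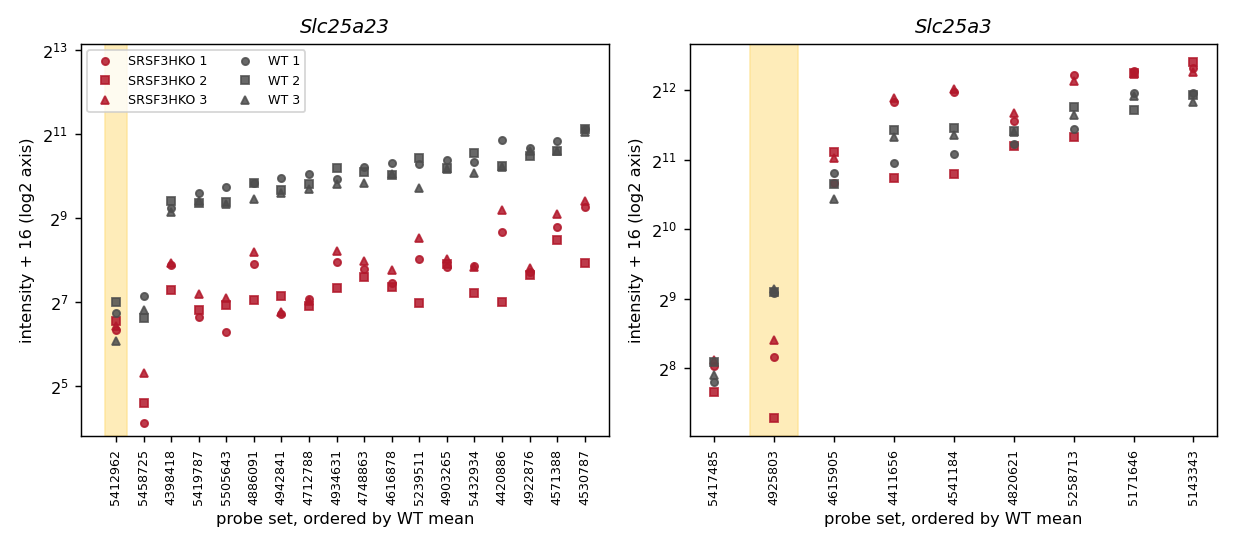
Intensity plus 16 on a log2 axis of each tested probe set of Slc25a23 (left) and Slc25a3 (right), ordered by WT mean, with SRSF3HKO arrays in red, WT arrays in grey and a shaded band at the probe set with changed usage. In Slc25a23 the shaded probe set is the place where the groups overlap, at 6.32 to 6.55 in SRSF3HKO against 6.06 to 7.00 in WT on the log2 scale, and in Slc25a3 it is the place where SRSF3HKO, at intensities of 139 to 321, lies well under WT, at 523 to 548.

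Carriers of the same protein family that the annotation lists under other symbols, and that are therefore not members, held no call. Log2 changes were -0.03 for Slc25a47 (listed as AI132487), -0.32 for Slc25a48 (AU042651) and -0.14 for Slc25a51 (Mcart1). The uncoupling protein gene Ucp2 differed by 0.07, and the outer-membrane relatives Mtch1 and Mtch2 by 0.31 and 0.30. Ucp1 and Ucp3 lay below the floor. These relatives and the lists below are called other mitochondrial genes for short, although the lists also hold cytosolic enzymes such as Fasn and Acly. Of their 84 tested genes 14 were called, against the 11.9% of all genes given above. Of 20 transporters of the mitochondrial membranes outside the family, 1 was higher and 3 were lower. The higher one was Sfxn4, a sideroflexin (log2 change 1.36). Its WT mean of 4.74 lay below the floor, and it was tested only through its SRSF3HKO arrays, with a mean over all arrays of 5.42. The ratio of its group means is given as at least 1.69-fold. The lower ones were Abcb10 and Abcb8, which are ATP-binding cassette proteins, at -1.81 and -0.78, and the proton-driven transhydrogenase Nnt at -1.42. In the machinery that imports carriers into the inner membrane, the receptor subunit gene Tomm22 rose (1.05) among 12 tested, and the median change was 0.50.

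Of all genes tested 6.85% were called higher and 5.03% lower, and no list below was tested against these shares. Beside the citrate carrier Slc25a1, 3 of 6 genes of citrate export and lipogenesis fell and 0 rose, with a median of -0.88. They were Fasn, the fatty acid synthase (-2.47), Acly, which cleaves exported citrate (-1.92), and the malic enzyme gene Me1 (-1.06). Beside the shuttle carriers, Mdh2, the mitochondrial malate dehydrogenase, rose (0.97) among 7 genes. Beside the ornithine carriers, Otc, the matrix enzyme that consumes ornithine, fell (-1.51) among 5 urea cycle genes. Among 7 genes around the carnitine carrier, Crat, the carnitine acetyltransferase, rose (1.08). Beside the iron carriers, Cpox, an enzyme of heme synthesis, fell (-1.65) and Glrx5, of iron-sulfur cluster assembly, rose (0.73) among 7 genes. Of 16 genes that mark mitochondrial content 1 was called higher, Cox4i1, a cytochrome oxidase subunit (0.68). The content genes summed to intensities of 46393, 46518 and 50339 in the SRSF3HKO arrays and 41624, 39013 and 45613 in the WT arrays. The groups did not overlap, but the sums were not scaled to the brightness of the arrays. The nearest arrays, SRSF3HKO replicate 1 and WT replicate 3, had median intensities over all probe sets of 89.6 and 85.9. The part of the content genes in the carrier values was not tested.

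**Figure D5:**
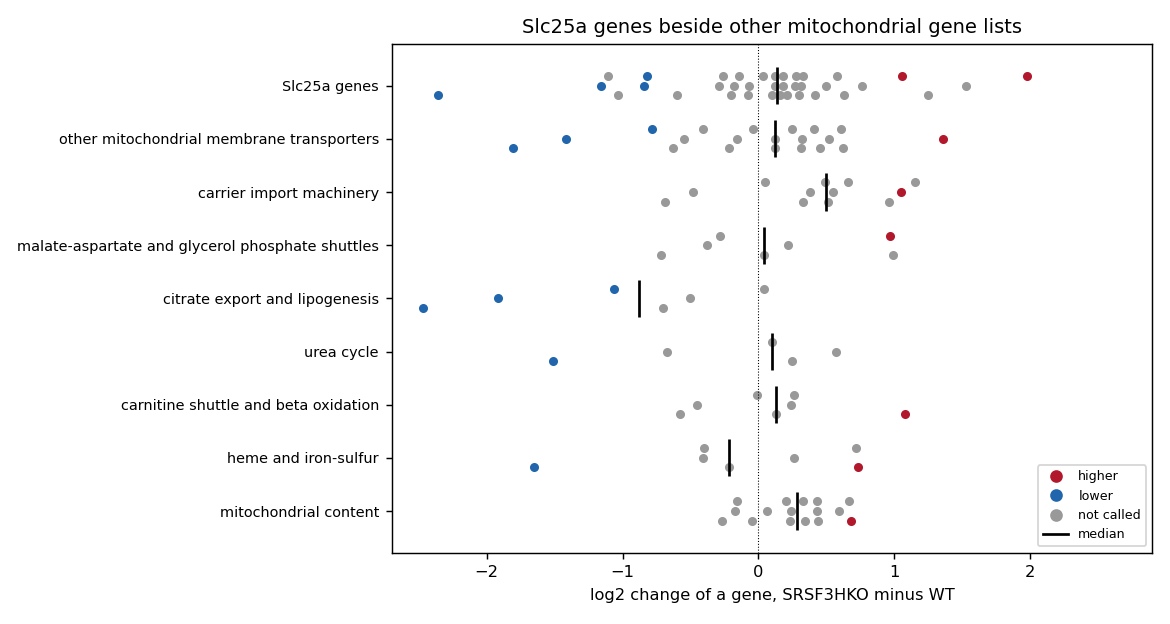
Log2 change, SRSF3HKO minus WT, of each tested gene in the Slc25 family and in lists of genes that work with the carriers, with called genes in red (higher) or blue (lower), the others in grey and a black bar at each median. The Slc25a genes centre at 0.14, citrate export and lipogenesis at -0.88 and the carrier import machinery at 0.50.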

How the data were processed

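Exon arrays read liver RNA in 2 genotypes, SRSF3HKO and WT, with 3 arrays each. Per the submitters' processing notes, PLIER as run in Affymetrix Expression Console gave the authors 1 value per core exon probe set. The deposited values are on the linear intensity scale. Versions and the background step are not given in the sources used here. Groups come from the genotype label, and replicate numbers follow sample order and pair nothing. No pair of arrays held the same values throughout. Of the probe sets, 208397 had 1 annotated gene, 3965 several and 17219 none. The first kind set gene levels and usage, after old symbols were updated through RefSeq.

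Values were transformed as log2(intensity + 16) without further normalization. SRSF3HKO and WT were compared with limma 3.58.1 (trended eBayes, 1 fit of all 6 arrays) in R 4.3.3 with data.table version 1.17.8, over 11707 genes and 157833 probe sets above the floor. Where a group mean lay under the floor, the fold is a bound from the floor on the ratio of the group means. Such a bound does not cover the spread between arrays. Usage was tested with diffSplice, which treats the probe sets of a gene as independent. Scripts were tested on simulated data. Figures were made in matplotlib 3.10.9 with numpy 2.4.6 and pandas 2.3.3 (Python 3.11.15). The number of arrays limits the precision.

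The members and lists were chosen with earlier results of these data known. Values in every array are given for called members, the 6 uncalled members with the lowest adjusted p and the 4 with the highest mean intensity, which only selects them and compares no levels. Slc25a30, Slc25a11 and Slc25a20 and probe set 5458725 of Slc25a23 were singled out after their values were seen. Called genes of the lists are named, up to 4 each. Alternatives covered the pseudocount (1 or 64), the scaling of arrays (quantile or median), the gene summary (mean or median polish), the floor (none, or the median level), and limma's options (no trend, robust, array weights). The rest were a threshold of 0.01, a minimum change of 1.5-fold, Y-linked signal as covariate, the splicing index and the omission of each array.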

Additional observations from a re-analysis of the deposited data

How the results depend on the processing

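Leaving out each array in turn gave 2 to 6 Slc25a genes called, 20 to 72 Slc25a probe sets, 1 to 4 usage calls, 3 to 30 of the other mitochondrial genes and 244 to 2155 genes in all, against 6, 57, 2, 14 and 1391 with all arrays. Without any of the WT replicates only Slc25a4 and Slc25a23 remained called among the members, while calls over all genes fell to 244, 274 and 434. An adjusted p under 0.01 left 2 Slc25a genes, 26 Slc25a probe sets, 4 other mitochondrial genes and 296 genes in all, of which 126 were higher and 170 lower in SRSF3HKO. With Y-linked signal as covariate these counts were 3, 37, 7 and 732 (388 higher and 344 lower). Array weights called 2157 genes in all. Usage calls in the family numbered 1 with a filter at the median, under which the Slc25a23 probe set was not tested, and 0 with the splicing index in limma. At an unadjusted limma p under 0.05 that index gave 63 of 398 probe sets in the family and 16316 of 135700 in all. The small difference in Srsf3 turned to -0.02 without SRSF3HKO replicate 1, was at most 0.58 with other arrays left out, and was 0.56 (limma adjusted p = 0.155) for the probe set mean and 0.81 (limma adjusted p = 0.0780) for median polish. That of Slc25a39 turned to -0.03 with array weights and ran from -0.11 (without SRSF3HKO replicate 2) to 0.26 as arrays were left out. That of Slc25a15 turned to -0.05 with the mean and -0.10 with median polish over probe sets, -0.01 with array weights and -0.06 without WT replicate 2, and reached 0.23 without WT replicate 1. The cause of these turns was not tested. Quantile normalization and median centring kept all 6 member calls and moved the median change over all genes to 0.03. No paired analysis was possible because the labels give the groups no shared replicate numbers.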
